A study of Homo sapiens with 40 samples.

Results

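The genes described here are secreted inflammatory factors and the enzyme PTGS2: the CXC chemokines CXCL8, CXCL1, CXCL2 and CXCL3, the interleukins IL1A, IL1B, IL24 and IL32, and PTGS2 (cyclooxygenase-2). They were chosen by name, and 9 of the 10 named genes were analysed, out of 12655 genes in the table. CCL20 was not analysed here. The study measured RNA in spheroids of FaDu, a hypopharyngeal squamous carcinoma line, and Kyse30, an oesophageal squamous carcinoma line, both carrying Dendra2, a fluorescent protein that light turns from green to red. Spheroids in type I collagen were kept for 72 h in 1 of 4 media, and each of the 2 lines gave 5 groups of 4 libraries. The first group had serum-free medium. A pair of groups had 9 nM epidermal growth factor (EGF) and were divided by the sample titles into photoconverted invasive cells and photoconverted non-invasive cells. The other two had the same EGF dose with 10 µg/mL cetuximab, an antibody against the EGF receptor, or with 100 nM AZD6244, an inhibitor of the kinase MEK.

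A label on cell selection names invasive cells for both photoconverted groups, so their division rests on titles and descriptions, while samples of the other 3 groups are called unselected there. Between those samples and the photoconverted cells, treatment and selection therefore cannot be told apart. Libraries came from a QuantSeq 3′ kit, which reads transcript ends, with depths of 2312126 to 5669262 counts for FaDu and of 463124 to 4534339 for Kyse30. The library of 463124 counts, invasive replicate 1 of Kyse30, stood apart: it had 0 counts of 8 of the 9 genes, whereas the other Kyse30 libraries held at least 2538447 counts. Counts of called genes in Kyse30 are therefore given with and without it. All 8 epithelial and squamous markers were analysed, with a summed level of 3032 to 13570 CPM, that is, counts per 1000000 of the TMM-scaled library. Of the other cell types, 1 of 9 leukocyte, 1 of 6 fibroblast and 1 of 4 endothelial markers were analysed. The leukocyte marker CD68 was at 0 to 1.70 CPM in serum-free and 6.95 to 10.9 CPM in non-invasive FaDu cells, and at 0.321 to 6.23 and 4.06 to 8.81 CPM in those of Kyse30. The endothelial marker CDH5 was at 16.4 to 34.6 CPM in serum-free and 3.78 to 6.93 CPM in non-invasive Kyse30 cells, and at most 5.29 CPM in FaDu, and COL1A1 was at most 24.7 CPM in both lines. The sample titles name no cells other than FaDu and Kyse30, so these markers need not stand for other cell types. Their part in the results was not tested. No label says that replicates were separate cultures, so the tests measure the spread between these libraries, which may be technical. Fewer producing cells and less RNA per cell cannot be told apart in such bulk samples.

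As background, CXCL8, CXCL1, CXCL2 and CXCL3 are small proteins that attract neutrophils through the receptors CXCR1 and CXCR2. IL1A and IL1B signal through the shared receptor IL1R1 to NF-kB, the transcription factor family that binds kappaB sites in promoters of many inflammatory genes, while IL24 belongs to the IL-10 family and IL32 is an intracellular and secreted cytokine. PTGS2 makes the precursor of prostaglandin E2 and is inducible in epithelium. Messengers of several of these genes are short-lived, and EGF receptor signalling through the MEK and ERK kinases is known to raise some of them. Squamous carcinomas are known to produce CXC chemokines and PTGS2.

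The 4 CXC chemokine genes lie together on chromosome 4, within 358.8 kb, and their promoters are shown, with that of PTGS2 beside them for comparison. Each window, from RefSeq on GRCh38.p14, runs from 250 bases before to 50 bases after the gene's start site and is written 5′ to 3′ on the gene's strand. Capitals mark the letters of the kappaB consensus, of its core GGAATTTCC, which reads the same on both strands apart from its middle base, or of TGANTCA, the AP-1 motif. CXCL8 lies at chr4:73740319-73740618 (plus strand), CXCL1 at chr4:73869143-73869442 (plus strand), CXCL2 at chr4:74099146-74099445 (minus strand), CXCL3 at chr4:74038640-74038939 (minus strand) and PTGS2 at chr1:186680374-186680673 (minus strand). In the GENCODE annotation, on the same genome, IL1A (chr2:112773915-112784590) and IL1B (chr2:112829751-112836903) lie near each other on the minus strand, IL24 lies at chr1:206897443-206904139 and IL32 at chr16:3065297-3082192, both on the plus strand.
CXCL8: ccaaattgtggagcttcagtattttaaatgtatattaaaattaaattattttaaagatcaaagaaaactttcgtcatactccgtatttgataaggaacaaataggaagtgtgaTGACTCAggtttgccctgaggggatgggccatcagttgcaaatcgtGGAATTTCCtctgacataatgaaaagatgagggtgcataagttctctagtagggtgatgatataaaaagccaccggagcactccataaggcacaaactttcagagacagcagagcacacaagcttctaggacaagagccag
CXCL1: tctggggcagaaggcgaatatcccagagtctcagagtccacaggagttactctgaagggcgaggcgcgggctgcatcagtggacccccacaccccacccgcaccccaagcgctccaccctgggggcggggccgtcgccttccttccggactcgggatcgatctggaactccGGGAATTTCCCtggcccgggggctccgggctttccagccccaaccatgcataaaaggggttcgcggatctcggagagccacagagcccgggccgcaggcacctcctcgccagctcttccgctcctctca
CXCL2: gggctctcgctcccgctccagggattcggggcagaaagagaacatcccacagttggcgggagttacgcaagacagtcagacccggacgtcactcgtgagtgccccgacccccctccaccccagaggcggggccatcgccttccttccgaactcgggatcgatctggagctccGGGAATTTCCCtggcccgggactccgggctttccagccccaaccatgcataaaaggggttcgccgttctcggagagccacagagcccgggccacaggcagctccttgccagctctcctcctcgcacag
CXCL3: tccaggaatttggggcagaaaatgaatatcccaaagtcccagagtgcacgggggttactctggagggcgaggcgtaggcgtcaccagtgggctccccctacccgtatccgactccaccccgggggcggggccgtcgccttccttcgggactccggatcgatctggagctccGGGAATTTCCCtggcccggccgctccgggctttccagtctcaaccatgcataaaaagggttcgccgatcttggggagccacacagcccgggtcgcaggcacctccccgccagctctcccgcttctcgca
PTGS2: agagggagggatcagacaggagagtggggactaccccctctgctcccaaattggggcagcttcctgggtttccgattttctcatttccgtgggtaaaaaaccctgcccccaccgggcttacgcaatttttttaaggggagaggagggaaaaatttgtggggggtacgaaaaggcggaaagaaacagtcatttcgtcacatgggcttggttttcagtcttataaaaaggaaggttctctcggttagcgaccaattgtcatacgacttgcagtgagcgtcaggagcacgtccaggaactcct

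All 9 genes matched a promoter by symbol. The letters GGAATTTCC, searched on both strands, stood in the windows of 4 of 9 members, CXCL8, CXCL1, CXCL2 and CXCL3, and in 162 of 35116 promoters of the same length (0.461%). In CXCL1, CXCL2 and CXCL3 they lie inside overlapping kappaB consensus matches and begin 77 or 78 bases before the start site, and in CXCL8 they begin 91 bases before it. The letters around that site are nearly the same in CXCL1, CXCL2 and CXCL3, so these are not separate matches. GGAATTTCC is a fixed form of the site, so its share over all promoters is a description and not a test. The kappaB consensus itself was found in 3 of 9 members and in 11.3% of all promoters. TGANTCA was found in CXCL8 and at 2 places in IL1A, against 7.71% of promoters, and TGACGTCA, the motif of cAMP response factors, in 0 of 9 members against 1.85%. No capitals appear in the PTGS2 window, which says only that these letters are not in it.

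In FaDu, EGF-treated non-invasive cells held more RNA of 7 of the 9 genes than serum-free spheroids, the largest rises being those of PTGS2, which was 34.1-fold higher in mean CPM, and IL1B, which was 11.5-fold higher, apart from IL24, which had 0 counts without EGF. By edgeR's quasi-likelihood test with adjustment over all genes, a gene is called where its adjusted p is under 0.05. Of all 12131 genes tested in FaDu, 50.0% were called in this comparison and 25.3% were called higher. Neither CXCL3 nor IL32 was called. IL24 is among the 7 but passed the filter on low counts only through the non-invasive and invasive groups, so it is no support for that count. The count was 6 to 7 when each library was left out. The share of mitochondrial reads was 14.3 to 15.8% in the serum-free libraries and 7.50 to 11.5% in the non-invasive ones, and its part in the result was not tested. DUSP6, an ERK phosphatase and a readout of the pathway, rose by 5.47 ± 0.33 (adjusted p = 6.91e-11) on the log2 scale and fell by 5.42 ± 0.33 (adjusted p = 2.27e-10) with the MEK inhibitor and fell by 2.03 ± 0.27 (adjusted p = 4.36e-05) with cetuximab, each ± SE. In Kyse30 its rise with EGF, at 0.95 ± 0.39 (adjusted p = 0.114), was not called.

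**Figure D1:**
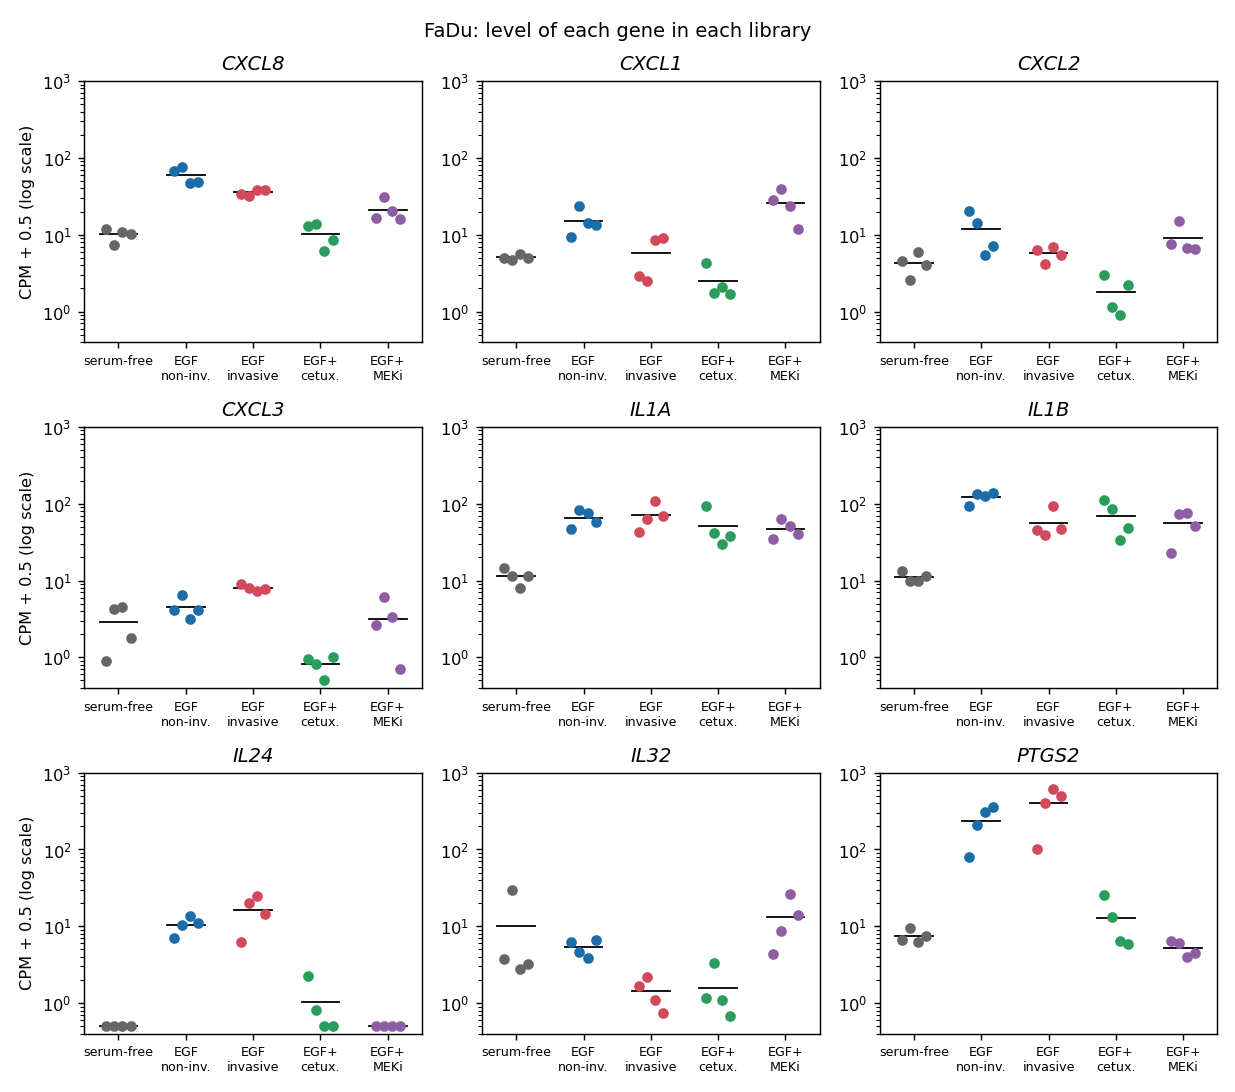
Level of each gene in each FaDu library: the y axis is CPM + 0.5 on a log scale, points are the 4 libraries of a group and black lines the group means. PTGS2 sits between 78.9 and 620.3 CPM in the 8 EGF libraries without inhibitor and between 3.51 and 25.3 CPM in the other 12, while CXCL1 has its highest mean, 25.5 CPM, with the MEK inhibitor.

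CXCL8, the neutrophil attractant also called interleukin-8, stood at 6.80, 9.83, 10.5 and 11.4 CPM in the serum-free FaDu libraries and at 46.1, 47.7, 67.2 and 75.2 CPM in the non-invasive ones. With cetuximab it was at 5.62, 8.08, 12.5 and 13.2 CPM and with the MEK inhibitor at 15.5, 15.9, 20.05 and 30.4 CPM. Invasive cells held 31.6, 33.0, 37.6 and 38.2 CPM. Non-invasive cells thus lay above every other group, the MEK inhibitor group lay between them and the cetuximab group, and the cetuximab and serum-free groups overlapped. The log2 fold change (± SE) was 2.63 ± 0.26 (adjusted p = 5.82e-09) for non-invasive cells over serum-free spheroids. With cetuximab the difference was -2.60 ± 0.26 (adjusted p = 1.38e-07) against non-invasive cells, and the MEK inhibitor gave -1.52 ± 0.24 (adjusted p = 2.66e-05). Directly compared, the MEK inhibitor group was higher than the cetuximab group by 1.08 ± 0.26 (adjusted p = 0.00393), a call that ended in a fit over all 40 libraries (adjusted p = 0.18). Invasive cells differed from non-invasive ones by -0.75 ± 0.24 (adjusted p = 0.0857), which was not called, although the groups did not overlap.

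CXCL1 and CXCL2, close relatives that share the receptor CXCR2, were also higher in non-invasive FaDu cells than without EGF. Against those cells they were lower with cetuximab, but not called lower with the MEK inhibitor. In invasive cells their means were 1.14-fold and 1.38-fold the serum-free ones, and these groups overlapped. CXCL1 was at 4.22, 4.49, 4.54 and 5.11 CPM without EGF, at 8.74, 13.1, 13.6 and 23.3 CPM in non-invasive cells and at 2.02, 2.39, 7.94 and 8.61 CPM in invasive cells. Its cetuximab libraries held 1.20, 1.26, 1.61 and 3.80 CPM, below every serum-free library, whereas its MEK inhibitor libraries held 11.5, 22.9, 28.2 and 39.2 CPM and overlapped with the non-invasive ones. CXCL1 in non-invasive cells was above the serum-free level by 1.67 ± 0.44 (adjusted p = 0.00236) on the log2 scale. With cetuximab it was lower than in non-invasive cells, at -2.88 ± 0.47 (adjusted p = 0.000146). With the MEK inhibitor the difference from non-invasive cells was 0.79 ± 0.39 (adjusted p = 0.127), not called, and without MEK inhibitor replicate 4 it was 1.04 and called (adjusted p = 0.0478). Against cetuximab the MEK inhibitor group was 12.9-fold higher in mean CPM, at 3.67 ± 0.47 (adjusted p = 3.07e-06), and the groups did not overlap.

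CXCL2 read 2.11, 3.53, 4.09 and 5.39 CPM without EGF, 4.90, 6.53, 13.5 and 19.9 CPM in non-invasive cells and 3.70, 5.02, 5.75 and 6.42 CPM in invasive cells. With cetuximab it read 0.402, 0.630, 1.72 and 2.46 CPM and with the MEK inhibitor 5.96, 6.20, 7.05 and 14.5 CPM. The cetuximab libraries lay below the non-invasive and MEK inhibitor ones, while the serum-free and non-invasive groups overlapped. The rise in non-invasive cells was 1.58 ± 0.47 (adjusted p = 0.00649), and without non-invasive replicate 1, the highest library, it was 1.17 and not called (adjusted p = 0.0533). Cetuximab gave -3.04 ± 0.51 (adjusted p = 0.000216) against non-invasive cells, the MEK inhibitor -0.41 ± 0.43 (adjusted p = 0.507), not called, and the MEK inhibitor against cetuximab 2.63 ± 0.52 (adjusted p = 0.000571). Without non-invasive replicate 1 the uncalled MEK inhibitor value was 0.03. CXCL1 and CXCL2 are close paralogs: 10.2% of the 50-base words in the last 500 bases of each also occur in the other, so reads from that part could be split or lost by the counting.

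CXCL3, another CXCR2 ligand, had the lowest counts of the 4 chemokines in every FaDu group but the invasive one. It was at 0.409, 1.26, 3.75 and 3.97 CPM without EGF, 2.67, 3.59, 3.63 and 6.06 CPM in non-invasive cells and 6.72, 7.18, 7.41 and 8.38 CPM in invasive cells. The cetuximab libraries held 0, 0.315, 0.447 and 0.516 CPM and the MEK inhibitor libraries 0.213, 2.11, 2.89 and 5.53 CPM. All invasive libraries thus lay above all non-invasive ones, at a difference of 0.89 ± 0.56 (adjusted p = 0.458) that was not called. Non-invasive cells against serum-free spheroids gave 0.70 ± 0.60 (adjusted p = 0.346), also not called. Cetuximab against non-invasive cells was called at -3.50 ± 0.77 (adjusted p = 0.00323), from 69 counts over the group to 6, and the MEK inhibitor at -0.56 ± 0.59 (adjusted p = 0.508) was not. The MEK inhibitor against cetuximab was called at 2.94 ± 0.79 (adjusted p = 0.00859), but without MEK inhibitor replicate 2 it was 2.30 and not called (adjusted p = 0.0537), nor was it by limma-voom, at 2.36 (adjusted p = 0.0965).

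The interleukin-1 genes rose with EGF in FaDu and, in contrast to CXCL8, were not called lower with cetuximab. IL1A, an alarmin that is active without cleavage, was at 7.38, 10.8, 11.03 and 13.9 CPM without EGF and 46.8, 57.3, 74.2 and 83.2 CPM in non-invasive cells. Its level was 42.4, 63.3, 68.9 and 109 CPM in invasive cells, 29.1, 37.1, 41.6 and 93.2 CPM with cetuximab and 34.5, 39.8, 50.2 and 61.8 CPM with the MEK inhibitor. Every group with EGF lay above the serum-free group, and the 4 groups with EGF overlapped. The rise with EGF was 2.61 ± 0.37 (adjusted p = 6.27e-06). Neither cetuximab, at -0.38 ± 0.32 (adjusted p = 0.542), nor the MEK inhibitor, at -0.48 ± 0.32 (adjusted p = 0.275), was called against non-invasive cells. Without cetuximab replicate 1, the highest library of that group, the cetuximab value was -0.90 and called (adjusted p = 0.0328). Against serum-free spheroids IL1A was higher with cetuximab, at 2.23 ± 0.37 (adjusted p = 5.37e-05), and with the MEK inhibitor, at 2.13 ± 0.37 (adjusted p = 0.000298).

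IL1B, which needs cleavage, for example by caspase-1, to signal, was at 9.36, 9.38, 10.8 and 12.7 CPM in serum-free libraries and at 93.4, 123, 135 and 135 CPM in non-invasive ones. Invasive cells held 38.7, 44.8, 45.7 and 92.6 CPM, cetuximab libraries 33.5, 48.3, 85.7 and 109.5 CPM and MEK inhibitor libraries 22.6, 51.5, 72.2 and 74.2 CPM. Serum-free levels lay below all others, and the invasive and MEK inhibitor groups lay below the non-invasive group without overlap. The rise with EGF was 3.54 ± 0.43 (adjusted p = 2.06e-06). Cetuximab gave -0.82 ± 0.36 (adjusted p = 0.185), not called, though limma-voom called it (adjusted p = 0.0302). The MEK inhibitor gave -1.13 ± 0.36 (adjusted p = 0.0259), a call lost without non-invasive replicate 2 (adjusted p = 0.0578), non-invasive replicate 4 (0.0551), MEK inhibitor replicate 1 (0.0618) or MEK inhibitor replicate 4 (0.0639), where the value was -0.88 to -1.09. With cetuximab IL1B was above the serum-free level by 2.72 ± 0.42 (adjusted p = 4.96e-05), and with the MEK inhibitor by 2.41 ± 0.42 (adjusted p = 0.000538). IL1A and IL1B lie next to each other on chromosome 2, and across the 20 FaDu libraries their log2(CPM + 1) correlated at r = 0.90 over all groups and 0.78 after the group means were removed, as a description of libraries that share depth.

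IL24, an IL-10 family cytokine that signals through receptors containing IL20RB, had 0 counts in the 4 serum-free and the 4 MEK inhibitor libraries. It read 6.50, 10.0, 10.4 and 12.9 CPM in non-invasive cells, 5.75, 13.9, 19.5 and 24.1 CPM in invasive cells and 0, 0, 0.315 and 1.79 CPM with cetuximab. The 173 counts of the non-invasive group set against 3 counts over the group as the floor make IL24 at least 47.1-fold higher than without EGF (adjusted p = 8.97e-06) and at least 55.5-fold lower with the MEK inhibitor (adjusted p = 1.53e-05). Cetuximab gave -4.24 ± 0.73 (adjusted p = 0.000701) on the log2 scale, and -6.61 without cetuximab replicate 1, which held 8 of the group's 9 counts. IL24 passed the filter on low counts only through the non-invasive and invasive groups, where it was high. Its calls with EGF and with either inhibitor are therefore no support for the counts of called genes.

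IL32 was at 2.27, 2.77, 3.27 and 29.6 CPM without EGF, where replicate 2 stood far above the rest, and at 3.34, 4.19, 5.83 and 6.05 CPM in non-invasive cells. It read 0.239, 0.611, 1.20 and 1.68 CPM in invasive cells, 0.172, 0.603, 0.670 and 2.84 CPM with cetuximab and 3.88, 8.07, 13.6 and 26.0 CPM with the MEK inhibitor. The non-invasive group lay above the invasive and cetuximab groups without overlap, and the MEK inhibitor group above the cetuximab group. Non-invasive cells against serum-free spheroids gave -1.001 ± 0.73 (adjusted p = 0.263), not called, and 0.81 without serum-free replicate 2 (adjusted p = 0.305). Cetuximab against non-invasive cells gave -2.35 ± 0.90 (adjusted p = 0.12), not called, and was called at -3.30 without cetuximab replicate 2 (adjusted p = 0.0474) and at -2.36 in a fit of these groups alone (adjusted p = 0.0278). The MEK inhibitor against non-invasive cells, uncalled as well, was called at 1.44 in such a fit (adjusted p = 0.0308). Invasive against non-invasive cells gave -2.39 ± 0.94 (adjusted p = 0.195), not called. The MEK inhibitor against cetuximab was called at 3.77 ± 0.87 (adjusted p = 0.00401), or 4.73 without cetuximab replicate 2. In the last 500 bases of IL32 transcripts, 5.12% of 50-base words also occur in the pseudogene RNU1-125P, so its counts carry that uncertainty.

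PTGS2 had the widest range of the 9 genes in FaDu. Serum-free libraries held 5.67, 6.13, 7.06 and 8.92 CPM, non-invasive cells 78.9, 205, 309.8 and 354 CPM and invasive cells 100.3, 401, 489.9 and 620.3 CPM. With cetuximab it was at 5.33, 6.03, 12.9 and 25.3 CPM and with the MEK inhibitor at 3.51, 4.04, 5.53 and 5.99 CPM. Both inhibitor groups overlapped with the serum-free group and neither overlapped with EGF alone. Non-invasive cells were higher than serum-free spheroids by 5.07 ± 0.66 (adjusted p = 1.01e-05). Against non-invasive cells, cetuximab gave -4.28 ± 0.61 (adjusted p = 0.000273), or -4.97 without cetuximab replicate 1, and the MEK inhibitor gave -5.66 ± 0.69 (adjusted p = 1.26e-05), 49.6-fold lower in mean CPM. The MEK inhibitor did not pass the test against cetuximab, at -1.37 ± 0.73 (adjusted p = 0.211). Invasive and non-invasive cells overlapped, at 0.77 ± 0.51 (adjusted p = 0.501), not called.

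Counted over the genes, 6 of 9 were lower with cetuximab than in non-invasive FaDu cells, namely CXCL8, CXCL1, CXCL2, CXCL3, IL24 and PTGS2, where 8.56% of all genes were called and 4.93% were called lower. With the MEK inhibitor 4 of 9 were lower than in the same cells, CXCL8, IL1B, IL24 and PTGS2, where 29.7% of all genes were called and 14.9% called lower. Both contrasts share the non-invasive libraries. IL24 passed the filter on low counts only through the non-invasive and invasive groups, so it is no support for either count. Compared directly, the MEK inhibitor group was higher than the cetuximab group in 5 of 9, CXCL8, CXCL1, CXCL2, CXCL3 and IL32, where 19.7% of genes were called and 8.54% called higher. IL1A, IL1B, IL24 and PTGS2 were not called in that comparison, although IL24, with 0 counts against 9, was called lower by DESeq2 (adjusted p = 0.0288) and without cetuximab replicate 4 (adjusted p = 0.0456). The leukocyte marker CD68 was at 1.79 to 6.93 CPM with cetuximab and at 0 to 2.54 CPM with the MEK inhibitor, both below the non-invasive range, and its part in these counts was not tested. DUSP6 went the other way there, at -3.39 ± 0.31 (adjusted p = 2.81e-07). The median log2 difference of the 9 genes between MEK inhibitor and cetuximab was 1.08, against 0.00 for all genes tested.

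Against serum-free FaDu spheroids, 5 of 9 were called with cetuximab, IL1A and IL1B higher and CXCL2, CXCL3 and IL32 lower, where 43.8% of all genes were called, 22.7% higher and 21.1% lower. CXCL2, at -1.46 ± 0.55 (adjusted p = 0.0328), lost its call without cetuximab replicate 2 or 3 or serum-free replicate 1, 3 or 4 (adjusted p = 0.051 to 0.108), by limma-voom (adjusted p = 0.092) and in the fit over all 40 libraries (adjusted p = 0.082). IL32, at -3.35 ± 0.88 (adjusted p = 0.00425), was -1.52 and not called without serum-free replicate 2 (adjusted p = 0.0994) and -4.31 without cetuximab replicate 2. CXCL1, whose cetuximab libraries lay below the serum-free ones, was not called but was called lower with relative log expression normalization (adjusted p = 0.0477), by DESeq2 (0.0292), in a fit of these groups alone (0.0402) and without cetuximab replicate 1 (0.0164). IL24 was called higher by DESeq2 (adjusted p = 0.0247) and without cetuximab replicate 3 (0.0369) or 4 (0.0311). With the MEK inhibitor 4 of 9 were higher than without EGF, CXCL8, CXCL1, IL1A and IL1B, where 19.4% of genes were called and 10.8% called higher. CXCL8 in that group was above the serum-free level by 1.11 ± 0.27 (adjusted p = 0.00418), not called in a fit over all 40 libraries (adjusted p = 0.172), and CXCL1 by 2.46 ± 0.43 (adjusted p = 0.000166). Invasive cells against serum-free spheroids gave 7 calls of 9, 6 higher and IL32 lower, where 57.3% of genes were called, 27.8% higher and 29.5% lower. CXCL1 and CXCL2 were not called there, and IL24 is again no support for the count. Without serum-free replicate 2, IL32 in that comparison was -1.57 and not called (adjusted p = 0.079), and CXCL3 lost its call without serum-free replicate 1 (adjusted p = 0.0775) or 4 (adjusted p = 0.0798).

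Between invasive and non-invasive FaDu cells, 0 of 9 passed edgeR's test, where 3.00% of all genes were called. At an unadjusted p under 0.05 there were 5, CXCL8, CXCL1, CXCL2, IL1B and IL32, all with lower values in invasive cells. The 3.00% does not apply to that threshold or to the other settings named here. No share of all genes stands beside those counts, so they are not read as a result about the 9 genes. DESeq2 called 2, CXCL1 (adjusted p = 0.026) and IL1B (adjusted p = 0.0215), and limma-voom called IL1B (adjusted p = 0.0357). Without invasive replicate 3, CXCL1 at -1.71 (adjusted p = 0.0493) and IL1B at -1.50 (adjusted p = 0.0339) were called, and without invasive replicate 4 CXCL1 at -1.84 was (adjusted p = 0.0403). A fit of these groups alone called CXCL8, IL1B and IL32. The uncalled values for CXCL3, IL1A, IL24 and PTGS2 were above 0, although that of IL1A was -0.17 without invasive replicate 3.

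In Kyse30 the counts were lower, and 5 of the 9 genes passed the filter on low counts, CXCL8, CXCL3, IL1A, IL32 and PTGS2, and CXCL2 passed as well without the shallow library. A gene can pass through the group where it is high, so these counts are not support for a rise, or for a fall from that group. Non-invasive cells were higher than serum-free spheroids in 4 of the 5, CXCL8, CXCL3, IL1A and IL32, where 12.9% of 11976 genes were called and 8.10% called higher. Without the shallow library 5 of 6 were higher, where 27.8% of 12072 genes were called and 15.9% called higher. CXCL8 was at 0, 0.847, 4.32 and 6.43 CPM without EGF and 11.3, 13.1, 18.2 and 26.4 CPM in non-invasive cells, groups that did not overlap. IL32 was at 0, 0, 0 and 0.733 CPM and 9.92, 14.9, 16.6 and 19.2 CPM, a wider gap that rests on 2 counts in the serum-free group. CXCL8 rose by 2.53 ± 0.74 (adjusted p = 0.0242), CXCL3 by 3.40 ± 0.78 (adjusted p = 0.00424), IL1A by 4.55 ± 1.01 (adjusted p = 0.0032) and IL32 by 6.09 ± 0.90 (adjusted p = 4.42e-05) on the log2 scale. The ratio of pooled IL32 CPM was 78.6, with a 95% counting interval of 21.5 to 653. Mitochondrial reads made up 19.7 to 23.8% of the serum-free and 8.22 to 19.3% of the non-invasive libraries, and the nuclear RNA MALAT1 made up 1.01 to 1.27% and 1.68 to 9.63%. The part of both in the result was not tested.

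The Kyse30 CXCL8 call ended without non-invasive replicate 2 (adjusted p = 0.076) or serum-free replicates 1 (0.0649) or 4 (0.0753), at 2.12 to 2.24, and its value was 3.31 without serum-free replicate 2. Without serum-free replicate 1, which held the only IL32 counts of its group, IL32 was 8.70 and IL1A 5.61, both called.

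**Figure D2:**
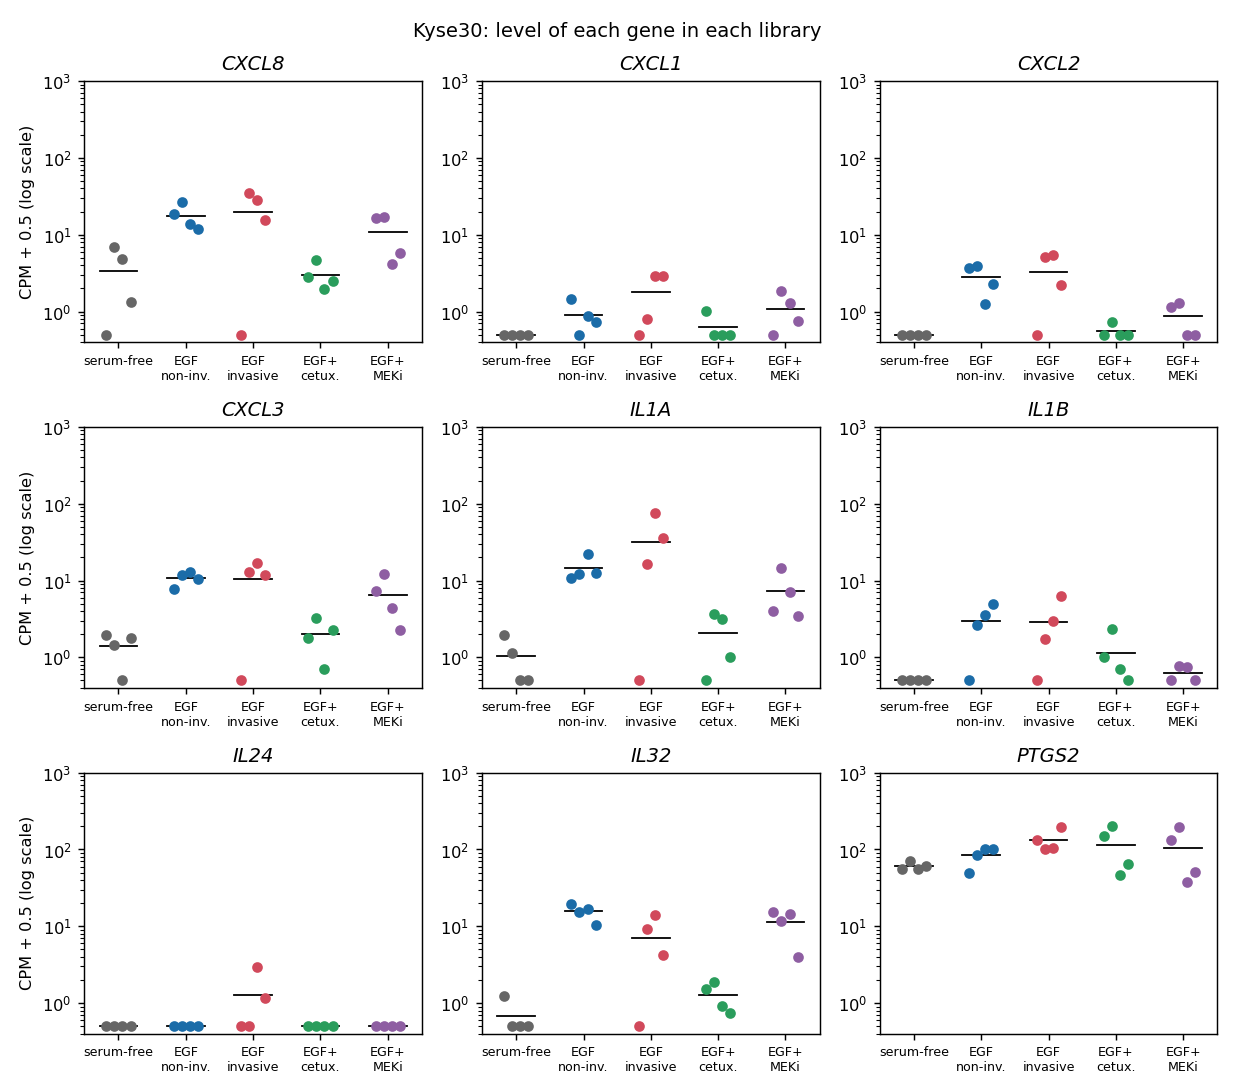
Level of each gene in each Kyse30 library, with axes, points and lines as for FaDu. CXCL8, CXCL3, IL1A and IL32 are low without EGF and with cetuximab, PTGS2 lies between 37.4 and 200.9 CPM in all 20 libraries, and the invasive library at 0.5 in most panels is the shallow one.

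With cetuximab, CXCL8, CXCL3, IL1A and IL32 of Kyse30 were lower than in non-invasive cells. The pathway readout DUSP6 had no lower mean there. It was at 47.7 to 216 CPM (mean 118) with cetuximab and 81.5 to 102 CPM (mean 92.1) in non-invasive cells. Cetuximab libraries held 1.44, 2.00, 2.33 and 4.14 CPM of CXCL8 and 0.250, 0.412, 1.04 and 1.38 CPM of IL32. CXCL3 was at 7.23, 9.92, 11.3 and 12.3 CPM in non-invasive cells and 0.206, 1.30, 1.75 and 2.76 CPM with cetuximab, and IL1A at 10.4, 11.5, 11.9 and 21.6 and 0, 0.501, 2.68 and 3.22 CPM. None of the 4 overlapped between these groups. The share of all genes without overlap was not counted, so this is not read as a result about these genes. The log2 differences were -2.79 ± 0.73 (adjusted p = 0.0241) for CXCL8, -2.74 ± 0.70 (adjusted p = 0.0209) for CXCL3, -3.04 ± 0.82 (adjusted p = 0.0292) for IL1A and -4.24 ± 0.70 (adjusted p = 0.000498) for IL32. These 4 of 5 stood where 4.93% of all genes were called and 3.08% called lower, and without the shallow library 5 of 6, with CXCL2, where 17.1% were called and 9.76% called lower. Only IL32 was called when cetuximab replicate 1, 3 or 4 was left out, with CXCL8 at adjusted p = 0.0818 to 0.0936, CXCL3 at 0.058 to 0.0823 and IL1A at 0.0595 to 0.114. Leaving out a non-invasive library ended the call of CXCL8 (replicate 1 at 0.0538, replicate 2 at 0.0733), CXCL3 (replicate 3 at 0.0522) or IL1A (replicate 3 at 0.0864, replicate 4 at 0.0586). By limma-voom CXCL8 was -2.78 and not called (adjusted p = 0.0582). MALAT1 made up 0.798 to 1.31% of the cetuximab libraries, below every non-invasive one. CDH5 was at 11.9 to 28.6 CPM there, above every non-invasive one, and the part of both was not tested. Once the shallow library and non-invasive replicates 1 and 3, which had high MALAT1 shares, were left out, CXCL8 was -2.92, CXCL3 -2.81, IL1A -2.81 and IL32 -3.97, all called, a choice made after the data were seen. Against serum-free spheroids, edgeR called 0 of 5 with cetuximab, where 3.13% of genes were called, with 1 at an unadjusted p under 0.05, PTGS2 at 0.93 ± 0.44 (adjusted p = 0.274). DESeq2 and limma-voom also called 0. Without the shallow library it was 0 of 6, with 0 at an unadjusted p under 0.05, where 15.1% were called.

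With the MEK inhibitor, 0 of 5 were called by edgeR against non-invasive Kyse30 cells, where 4.56% of genes were called, and 0 of 6 without the shallow library, where 14.4% were. Of the 5, 0 had an unadjusted p under 0.05 (1 of 6 without that library, CXCL2 at -2.55 ± 0.95 (adjusted p = 0.072)), and DESeq2 and limma-voom also called 0. CXCL8 was at 3.63, 5.23, 15.9 and 16.3 CPM and IL32 at 3.49, 11.2, 13.8 and 15.0 CPM in this group, each overlapping with non-invasive cells. CXCL3 was at 1.74, 3.89, 6.85 and 11.8 CPM and IL1A at 2.99, 3.53, 6.49 and 14.2 CPM. The log2 differences were -0.75 ± 0.66 (adjusted p = 0.664) for CXCL8, -0.75 ± 0.63 (adjusted p = 0.647) for CXCL3, -1.02 ± 0.73 (adjusted p = 0.562) for IL1A and -0.47 ± 0.56 (adjusted p = 0.779) for IL32, none of them called. DUSP6 fell there by 2.01 ± 0.40 (adjusted p = 0.00294). A fit over all 40 libraries called 2 genes that the filter had left out in Kyse30, IL1B at -4.00 (adjusted p = 0.00861) and CXCL2 at -2.55 (adjusted p = 0.0298), both lower with the MEK inhibitor. IL1B was also called, at -4.40 (adjusted p = 0.0254), when the shallow library and non-invasive replicates 1 and 3 were left out. MALAT1 made up 0.810 to 1.20% of the MEK inhibitor libraries and CDH5 was at 8.71 to 12.98 CPM, again outside the non-invasive ranges, and their part was not tested.

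Set directly against cetuximab, the MEK inhibitor group of Kyse30 was higher in IL32 by 3.77 ± 0.70 (adjusted p = 0.00511), without overlap, the 1 call of 5, where 1.18% of all genes were called. Without the shallow library it was the 1 call of 6, where 4.66% were. The other uncalled values were 2.04 ± 0.72 (adjusted p = 0.265) for CXCL8, 2.00 ± 0.70 (adjusted p = 0.248) for CXCL3 and 2.01 ± 0.82 (adjusted p = 0.412) for IL1A. CXCL8 was called in a fit of these groups alone (adjusted p = 0.0358) and over all 40 libraries (0.0353). Against serum-free spheroids the MEK inhibitor group had 1 call of 5, IL32, at 5.62 ± 0.90 (adjusted p = 0.000931), where 3.90% of genes were called and 2.29% called higher, with 8.23 for IL32 without serum-free replicate 1. Without the shallow library there were 3 of 6, with CXCL3 at 2.66 (adjusted p = 0.00812) and IL1A at 3.53 (adjusted p = 0.0126), where 15.4% were called. Without MEK inhibitor replicate 4 CXCL3 was 2.97 (adjusted p = 0.0429), and DESeq2 called it as well (adjusted p = 0.0069). IL1A was also called with relative log expression normalization (adjusted p = 0.0476) and in a fit of these groups alone (0.0108), and the fit over all 40 libraries added CXCL8 (0.0366), CXCL3 (0.0181) and IL1A (0.00763).

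Invasive and non-invasive Kyse30 cells were told apart by edgeR in 0 of the 5 genes tested, where 0.409% of genes were called, and in 0 of 6 without the shallow library, where 2.10% were. At an unadjusted p under 0.05 there were 0 of 5, and 1 of 6 without that library, IL1A at 1.60 ± 0.63 (adjusted p = 0.195). DESeq2 and limma-voom called 0. IL1A held 0, 15.9, 35.6 and 74.1 CPM in the invasive libraries, and PTGS2 102, 103, 131 and 197 CPM. Against serum-free spheroids, invasive cells were higher in 4 of 5, CXCL8, CXCL3, IL1A and IL32, where 26.6% of genes were called. Leaving out the shallow library made it 5 of 6, where 38.5% were called. IL1A there was 5.82 ± 1.00 (adjusted p = 0.000138), or 5.02 without invasive replicate 3 and 6.88 without serum-free replicate 1. IL32 was 5.04 ± 0.93 (adjusted p = 0.000277), or 7.65 without serum-free replicate 1, and CXCL8 was 2.81 ± 0.75 (adjusted p = 0.00715), or 3.60 without serum-free replicate 2. PTGS2 in this comparison was not called, at 1.15 ± 0.45 (adjusted p = 0.057), but was in a fit of these groups alone (1.16, adjusted p = 0.0315), where CXCL8 was not (adjusted p = 0.146).

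PTGS2 was already present in serum-free Kyse30 spheroids, at 54.6, 55.0, 60.2 and 70.0 CPM, and its levels overlapped across most groups. Non-invasive cells held 48.4, 85.1, 100.3 and 100.5 CPM, cetuximab libraries 45.9, 63.9, 148 and 201 CPM and MEK inhibitor libraries 37.4, 50.5, 132 and 195 CPM. In both inhibitor groups replicates 1 and 2 were at 132 to 200.9 CPM and replicates 3 and 4 at 37.4 to 63.9 CPM. Non-invasive cells against serum-free spheroids gave 0.48 ± 0.44 (adjusted p = 0.542), cetuximab against non-invasive cells 0.46 ± 0.43 (adjusted p = 0.643) and the MEK inhibitor 0.31 ± 0.43 (adjusted p = 0.821), none of them called, and the last was -0.18 without MEK inhibitor replicate 2. The MEK inhibitor group differed from the cetuximab group by -0.14 ± 0.43. Same-numbered libraries of these groups deviated together, but MEK inhibitor replicate 1 did so weakly (r = 0.1078) and matched cetuximab replicate 2 better. This pairing comes from the data and not from a label. PTGS2 was lower with the MEK inhibitor in 4 of 4 such pairs. With the replicate number as a block the PTGS2 difference was -0.16 ± 0.41 (adjusted p = 0.998), not called. In the same pairs CXCL8, IL1A and IL32 were lower with the MEK inhibitor in 0 of 4, and CXCL3 in 1 of 4. With the block, IL32 was called at 3.72 ± 0.67 (adjusted p = 0.00532). CXCL8 at 2.05 ± 0.69 (adjusted p = 0.247), IL1A at 2.16 ± 0.80 (0.335) and CXCL3 at 1.99 ± 0.73 (0.326) were not.

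CXCL1, CXCL2, IL1B and IL24 were near 0 in Kyse30. CXCL1 had 0 counts without EGF and 5 in the non-invasive group, and IL24 had counts in 2 libraries only, both invasive, 8 in all. CXCL2 had 0 counts without EGF, 36 in non-invasive cells, 1 with cetuximab and 6 with the MEK inhibitor, which makes non-invasive cells at least 8.70-fold higher than serum-free spheroids against a floor of 3 counts. The cetuximab ratio of CXCL2 was 0.0242, with a 95% counting interval of 0.000595 to 0.143. IL1B had 0 counts without EGF, 38 in non-invasive cells, 11 with cetuximab and 2 with the MEK inhibitor. In invasive cells CXCL1 had 14 counts, CXCL2 32 and IL1B 27. Both IL1B and CXCL2 were called higher in non-invasive than in serum-free cells without the filter on low counts (adjusted p = 0.019 and 0.009) and over all 40 libraries (0.00319 and 0.000636). In invasive cells against serum-free ones, CXCL1, CXCL2 and IL1B were called higher under both settings. The non-invasive IL1B libraries ran from 0 to 4.51 CPM, against 93.4 to 135 CPM in FaDu. At 0 counts, levels up to the floor of 3 counts over a group are not told apart from absence.

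**Figure D3:**
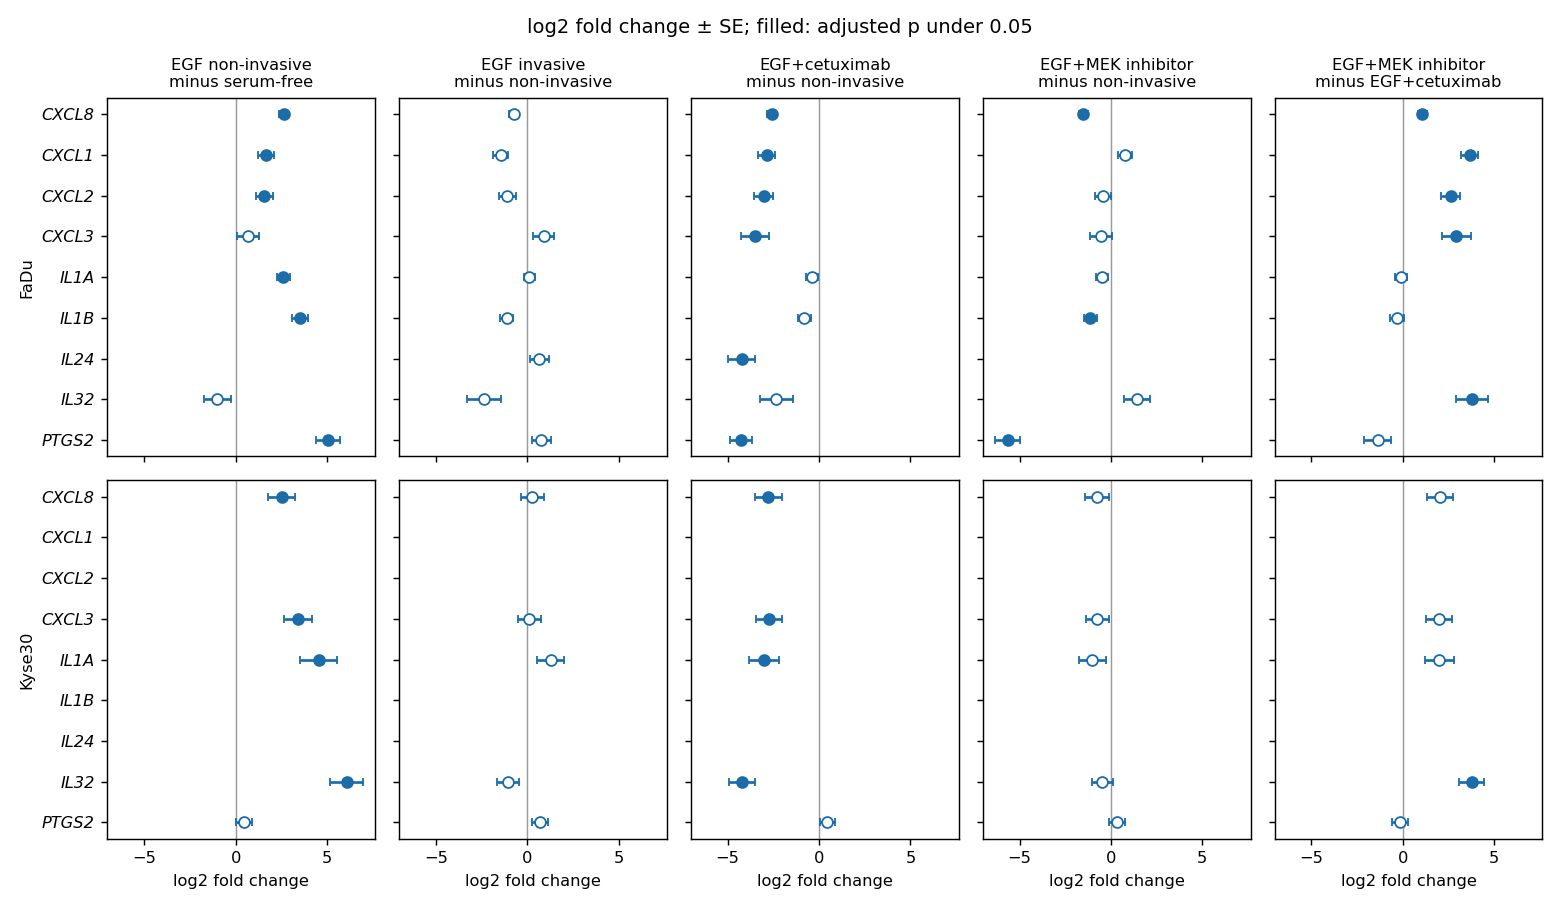
log2 fold change ± SE of each gene in 5 comparisons (columns) and both lines (rows), with filled points for an adjusted p under 0.05. Genes that were not tested, and IL24 where a group had 0 counts, have no point. CXCL8, CXCL1, CXCL2, CXCL3 and IL32 of FaDu lie to the right of 0 in the last column, and PTGS2 lies far from 0 in FaDu against serum-free spheroids and with either inhibitor against non-invasive cells, and near 0 in each Kyse30 panel.

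The lines were compared in 1 fit over 40 libraries, as the Kyse30 effect minus the FaDu effect. For non-invasive cells against serum-free spheroids, 3 of 9 genes differed, where 15.7% of 12652 genes did, 9.48% with a higher value in Kyse30. PTGS2 differed by -4.58 ± 0.78 (adjusted p = 7.91e-05), a smaller rise in Kyse30, and IL32 by 7.10 ± 1.26 (adjusted p = 8.49e-05). IL32 rose in Kyse30, from 2 counts in its serum-free group, but had no called rise in FaDu. Its FaDu means were 9.47 CPM without EGF, where replicate 2 held 29.6 CPM, and 4.85 CPM in non-invasive cells. Without replicate 2 of every group the IL32 value was 4.83 and without replicate 1 it was 10.1, both called. CXCL2 differed by 4.57 ± 1.57 (adjusted p = 0.0405), a fitted value that rests on 0 counts in serum-free Kyse30 and lost its call when replicate 1, 2, 3 or 4 was left out of every group (adjusted p = 0.0626 to 0.147) and by limma-voom (adjusted p = 0.0858), which called IL24 in its place (adjusted p = 1.13e-05). CXCL3, at 2.71 ± 1.02 (adjusted p = 0.0633), was not called, but was without the shallow library (adjusted p = 0.0311), which made 4 of 9 where 24.7% of genes differed, without replicate 1 of every group (adjusted p = 0.0325) and by DESeq2 (adjusted p = 0.0225). CXCL8 gave -0.09 ± 0.83 (adjusted p = 0.978).

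For cetuximab against non-invasive cells 1 of 9 differed between the lines, PTGS2 at 4.78 ± 0.75 (adjusted p = 0.000283), or 5.41 without replicate 1, where 1.31% of genes did. For the MEK inhibitor it was again PTGS2, 1 of 9, at 5.97 ± 0.80 (adjusted p = 6.93e-06), where 5.10% did. Without the shallow library PTGS2 was likewise the 1 of 9 in both, where 3.73% and 11.4% of genes differed. IL1A for cetuximab was not called, at -2.58 ± 0.81 (adjusted p = 0.116). DUSP6 differed in the same direction as PTGS2, and its log2 interaction was -4.50 ± 0.52 (adjusted p = 6.43e-08) for EGF, 2.42 ± 0.48 (adjusted p = 0.00335) for cetuximab and 3.43 ± 0.52 (adjusted p = 2.41e-05) for the MEK inhibitor, and its part in the PTGS2 result was not tested. For invasive against non-invasive cells edgeR called 0 of 9, where 0.182% of genes were called and 0.585% without the shallow library. In that comparison 2 had an unadjusted p under 0.05, CXCL1 and IL24 (5 without the shallow library), DESeq2 called 1, CXCL1 (adjusted p = 0.0497), and limma-voom called 0. No share of all genes is given beside these counts.

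Without EGF the lines themselves differed in 7 of 9 genes, 1 higher and 6 lower in Kyse30. Of all genes 43.5% differed, 21.5% higher and 22.0% lower. Without the shallow library the count was again 7 of 9, where 52.1% of genes differed, 26.3% higher and 25.8% lower. PTGS2 was higher in Kyse30 by 3.08 ± 0.59 (adjusted p = 6.66e-05). CXCL8 was lower, at -1.68 ± 0.58 (adjusted p = 0.0166), a call that ended without replicate 1 (adjusted p = 0.0749), 3 (0.0506) or 4 (0.138) of every group and grew to -2.65 without replicate 2. IL1A was lower, at -4.20 ± 0.87 (adjusted p = 0.000117), or -5.15 without replicate 1, and IL32 at -5.47 ± 1.06 (adjusted p = 4.27e-05), or -3.29 without replicate 2 and -8.50 without replicate 1. CXCL1, CXCL2 and IL1B were called lower as well, from 0 counts in Kyse30.

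Genes of the NF-kB circuit, 26 of 27 listed being analysed, were read beside the members. In FaDu the MEK inhibitor group was higher than the cetuximab group in 14 of 26 and lower in 1, where 19.7% of all genes were called and 8.54% called higher, with a list median of 1.15 on the log2 scale against 0.00 over all genes. IRF1, an interferon response factor, was higher by 2.16 ± 0.36 (adjusted p = 0.000337), MAP3K8, a kinase upstream of MEK, by 2.24 ± 0.60 (adjusted p = 0.0112) and NFKBIE, an NF-kB inhibitor, by 1.71 ± 0.40 (adjusted p = 0.00295). The 1 lower gene was IER3, an ERK-induced early gene. IRF1 had 51.6 ± 13.6 CPM under cetuximab and 229.8 ± 125 CPM under the MEK inhibitor (mean ± SD, n = 4), against 47.7 ± 14.0 CPM in non-invasive cells. In Kyse30 4 of 25 tested were higher and 0 lower, where 1.18% of all genes were called and 0.593% called higher, the leading ones being PLAU at 3.14 ± 0.74 (adjusted p = 0.0342), BIRC3 at 2.31 ± 0.43 (adjusted p = 0.00535) and IRF1 at 1.83 ± 0.28 (adjusted p = 0.000852), with a list median of 0.64 against -0.01. Leaving out the shallow library made it 5 higher and 0 lower, where 4.66% were called and 2.24% called higher.

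**Figure D4:**
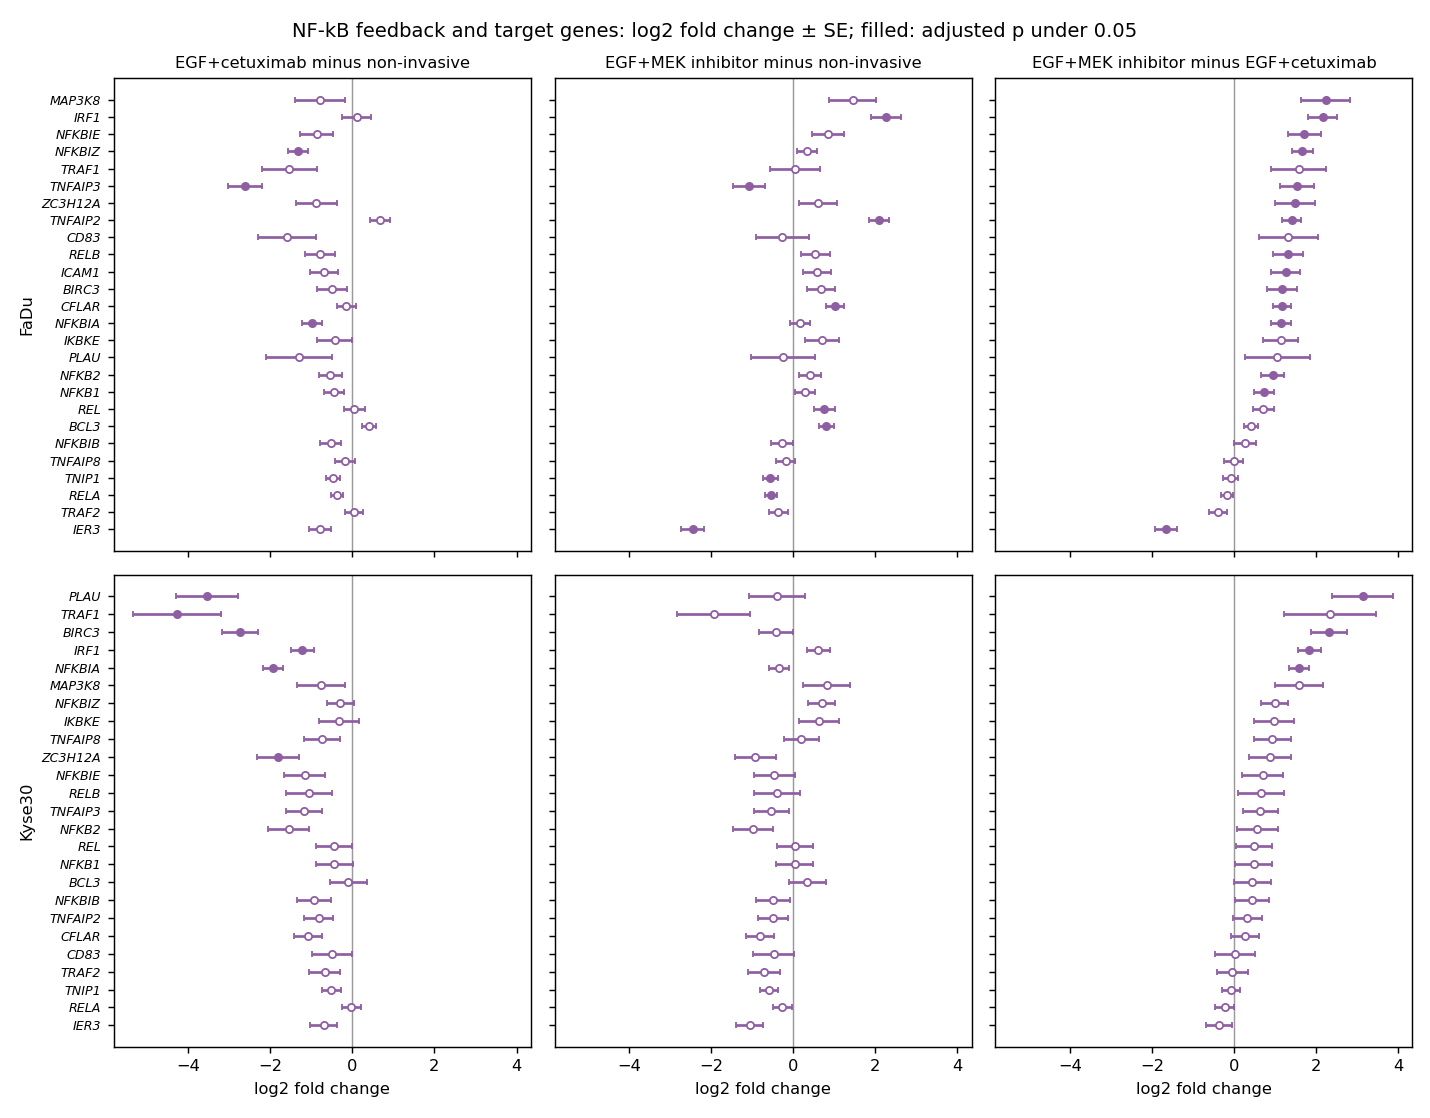
log2 fold change ± SE of the NF-kB feedback and target genes in both lines (rows), ordered by the MEK inhibitor against cetuximab, with filled points for an adjusted p under 0.05. In the right-hand FaDu panel 14 of 26 points are filled to the right of 0 and 1, IER3, to the left.

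Against non-invasive cells, 3 of 26 were lower with cetuximab in FaDu, TNFAIP3, an NF-kB feedback inhibitor, at -2.61 ± 0.42 (adjusted p = 0.000642), NFKBIZ at -1.32 ± 0.25 (adjusted p = 0.000861) and NFKBIA at -0.98 ± 0.24 , with 0 higher, where 8.56% of all genes were called and 4.93% called lower. In Kyse30 6 of 25 were lower, where 4.93% of genes were called and 3.08% called lower. Without the shallow library it was 10, where 17.1% and 9.76% were. The 6 were led by TRAF1, PLAU and BIRC3, with BIRC3 at -2.73 ± 0.44 (adjusted p = 0.000354). The MEK inhibitor gave 5 higher and 4 lower of 26 in FaDu, with IER3 at -2.44 ± 0.28 (adjusted p = 2.44e-06) and IRF1 at 2.26 ± 0.36 (adjusted p = 0.00012), where 29.7% of all genes were called and 14.9% called lower, and 0 of 25 in Kyse30, where 4.56% were (3 lower without the shallow library, where 14.4% were). With EGF, 6 of 26 were higher and 5 lower in FaDu, no larger shares than the 50.0% of all genes called and 25.3% called higher. In Kyse30 11 of 25 were higher and 0 lower, where 12.9% of genes were called and 8.10% called higher (15 without the shallow library, where 27.8% and 15.9% were). TNFAIP3 rose in both lines, by 2.51 ± 0.42 (adjusted p = 9.58e-05) in FaDu and 2.80 ± 0.47 (adjusted p = 0.000205) in Kyse30. Invasive FaDu cells were lower than non-invasive ones in 3 of 26, ICAM1, TNFAIP2 and BCL3, where 3.00% of genes were called.

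The counts for genes that make, mature or receive these factors are read against the share of all genes called with EGF, 50.0% in FaDu (25.3% higher) and 12.9% in Kyse30 (8.10% higher), or 27.8% in Kyse30 without the shallow library (15.9% higher). PTGES, the enzyme that turns the product of PTGS2 into prostaglandin E2, did not follow PTGS2 and fell with EGF, at -2.78 ± 0.38 (adjusted p = 1.09e-05) in FaDu and -1.50 ± 0.33 (adjusted p = 0.00298) in Kyse30, and was lower in invasive than in non-invasive FaDu cells, at -1.64 ± 0.41 (adjusted p = 0.0393). In FaDu it held 294 ± 22.1 CPM without EGF and 42.8 ± 5.09 CPM in non-invasive cells. Over the prostaglandin list, 1 of 7 tested was higher and 3 lower with EGF in FaDu, and 0 higher and 1 lower of 5 in Kyse30 (2 lower without the shallow library). Among interleukin-1 processing genes, 4 of 10 were higher and 3 lower with EGF in FaDu, and 2 of 10 higher and 0 lower in Kyse30, with and without the shallow library. CASP1, which cleaves IL1B, was lower in invasive than in non-invasive FaDu cells, at -1.84 ± 0.47 (adjusted p = 0.0267), and higher with the MEK inhibitor than with cetuximab by 1.29 ± 0.39 (adjusted p = 0.0201) in FaDu and 2.67 ± 0.67 (adjusted p = 0.0462) in Kyse30. Of the interleukin-1 receptor and adaptor genes, 2 of 11 were higher and 2 lower with EGF in FaDu and 1 of 12 higher in Kyse30 (2 without the shallow library). IL1RN, the antagonist of the receptor, was higher in non-invasive than in serum-free FaDu cells by 1.32 ± 0.50 (adjusted p = 0.0301). Its means were 7.40 CPM without EGF, 18.5 CPM in non-invasive cells and 6.70 CPM in invasive cells. Of the receptors, 3 of 12 were analysed. IL20RB, a subunit for IL24, was higher in non-invasive than in serum-free Kyse30 cells by 3.42 ± 0.95 (adjusted p = 0.0182). Its levels were low, with means of 0.381 CPM without EGF, 4.33 CPM in non-invasive cells and 0.494 CPM in invasive cells. Regulators of unstable AU-rich messengers, such as ELAVL1, were higher in 4 of 9 with EGF in FaDu and 0 of 9 in Kyse30 (2 without the shallow library).

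Other secreted cytokines, 15 of 38 being analysed, changed in both directions. With EGF 7 of 13 tested were higher and 4 lower in FaDu, where 50.0% of all genes were called and 25.3% called higher, led by IL11, higher by 6.02 ± 1.45 (adjusted p = 0.00206), and the death ligand TNFSF10, lower at -4.48 ± 0.35 (adjusted p = 1.98e-10). In Kyse30 6 of 14 were higher and 1 lower, with and without the shallow library (12.9% and 27.8% of genes were called), among them AREG, an EGF receptor ligand, by 2.15 ± 0.39 (adjusted p = 0.000501). CCL5, a chemokine for T cells, was higher with the MEK inhibitor than with cetuximab in FaDu by 3.86 ± 0.69 (adjusted p = 0.000211), as CXCL1 was, and IL11 was lower, at -3.95 ± 1.22 (adjusted p = 0.0285), a comparison in which 4 of 13 were higher and 3 lower and 19.7% of all genes were called. With cetuximab, CCL5 of Kyse30 was lower than in non-invasive cells, at -4.78 ± 1.14 (adjusted p = 0.016), and so was AREG, at -1.56 ± 0.38 (adjusted p = 0.0165), 3 of 14 in all, where 4.93% of genes were called (7 lower and 1 higher without the shallow library, where 17.1% were).

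Among themselves the 9 genes did not form 1 pattern in FaDu. Over 20 libraries, the correlations of log2(CPM + 1) between the 36 pairs ran from -0.34 (IL32 and PTGS2) to 0.99 (IL24 and PTGS2), with a median of 0.43, and IL24 and PTGS2 still correlated at 0.89 after group means were removed. In Kyse30 they ran from 0.14 (IL32 and PTGS2) to 0.90 (CXCL3 and IL1A), with a median of 0.53. These are descriptions of libraries that share depth and groups, and in Kyse30 the shallow library and low counts enter them. Outside the 9 genes, the genes most like CXCL8 in FaDu were GLIPR1, WDR1, KLF6, TNFAIP3 and SERPINB1 (r = 0.91 to 0.89), and those most like PTGS2 were IGFN1, TRPV3, INHBA, MMP1 and SERPINB2 (r = 0.98 to 0.97). In Kyse30 MAPK6, TICAM1, ETS1, HDAC9 and ABTB2 were most like CXCL8 (r = 0.91 to 0.87), whereas for PTGS2 the likeness was lower, ATL2, LANCL2, STK17B, OVOL1 and USP7 reaching r = 0.75 to 0.69.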

How the data were processed

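RNA of 40 samples was measured with a QuantSeq 3′ kit. The deposited table holds raw counts of reads per gene, which the authors made by aligning to GRCh38 with STAR and counting with HTSeq (per the submitters' processing notes). Their versions and the strand setting were not given in the sources used. Each gene in it had a total of at least 142 counts and counts in at least 4 libraries. All columns were mapped to samples by name.

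Counts were tested with edgeR 4.0.16 in R 4.3.3 (quasi-likelihood F test, TMM factors, filterByExpr), in 1 fit of 20 libraries for each line and 1 fit of all 40 for differences between lines, with Benjamini-Hochberg adjustment over all genes tested. The steps were tested on simulated data. CPM use TMM-scaled library sizes, SE is the log2 fold change divided by the root of F, and a group at 0 counts was set to a floor of 3 counts. Intervals and floors cover counting error only. Counts of replicates differed by more than sampling noise in all 60 pairs (chi-square per degree of freedom 2.39 to 63.63).

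Groups came from titles and descriptions. Alternatives were limma-voom (limma 3.58.1), DESeq2 1.42.0, other filters and normalization, fits of fewer or more groups, a replicate block and leaving out each library. Named were all 9 members, DUSP6, up to 3 called genes with the largest change of each list and comparison, and the 5 genes most correlated with CXCL8 and with PTGS2. The members and lists were chosen with earlier results of these data known. Replicate numbers were checked as pairs by the correlation of deviations from group means. Between the MEK inhibitor and cetuximab in Kyse30 every pair passed 0.1 (0.1078 to 0.3659), which comes from the data and not from a label, and the other comparisons had at least 1 pair below it. Promoters came from RefSeq (GRCh38.p14) and gene positions from GENCODE.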

Additional observations from a re-analysis of the deposited data

Results flagged for a closer look

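Of 78 groups of 4 libraries with counts in at least 2 libraries, 5 held a library far from the other three, where chance gives about 1 in 20 groups. The gap between that library and the nearest other one, as a share of the group's range, was 0.963 for IL32 in serum-free FaDu spheroids (replicate 2, 29.6 CPM). It was 0.871 for IL1B in invasive FaDu cells (replicate 3, 92.6 CPM), 0.872 for CXCL2 with the MEK inhibitor in FaDu (replicate 2, 14.5 CPM) and 0.845 for CXCL1 with cetuximab in FaDu (replicate 1, 3.80 CPM). In Kyse30 it was 0.860 for IL1A in non-invasive cells (replicate 3, 21.6 CPM). In 3 further groups only 1 library had counts, so the share was 1.000 by construction, for CXCL1 with cetuximab (replicate 1, 0.518 CPM), CXCL2 with cetuximab (replicate 2, 0.230 CPM) and IL32 without EGF (replicate 1, 0.733 CPM) in Kyse30.

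The effect of a treatment differed between the lines, by the interaction test in edgeR, for 3 genes. For non-invasive cells against serum-free spheroids the log2 difference, Kyse30 minus FaDu, was 4.57 for CXCL2, 7.10 for IL32 and -4.58 for PTGS2. For PTGS2 it was also 4.78 with cetuximab and 5.97 with the MEK inhibitor, both against non-invasive cells, so that these 3 values for PTGS2 share the non-invasive libraries.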

How the results depend on the processing

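Over all alternatives run, 946 values of called genes stayed called, 47 lost the call and 0 changed sign, while of uncalled values 844 stayed uncalled, 44 became called and 9 changed sign. Invasive against non-invasive FaDu cells gave 2 called genes with DESeq2, 1 with limma-voom, 3 in a fit of these groups alone and 0 to 2 with a library left out. In Kyse30, cetuximab against non-invasive cells gave 1 to 5 with a library left out. The MEK inhibitor against non-invasive cells gave 2 in a fit over all 40 libraries and 1 without the 3 libraries that stand apart (added after seeing the data). Against cetuximab it gave 2 in the fit over all 40 libraries and 2 in a fit of these groups alone. Against serum-free spheroids it gave 2 with relative log expression normalization, 3 with DESeq2, 4 over all 40 libraries, 2 in a fit of these groups alone, 3 without the 3 libraries and 1 to 3 with 1 left out. Invasive cells against serum-free spheroids gave 7 without the filter on low counts, 7 over all 40 libraries and 1 in a fit of these groups alone, PTGS2, where only 2 members were tested and CXCL8 lost its call. Between the lines, DESeq2 gave 1 for invasive against non-invasive cells, and limma-voom gave 2 for cetuximab and 2 for the MEK inhibitor (PTGS2 and IL24). The 9 values that changed sign were all uncalled. With 1 library left out, in FaDu IL32 with EGF ran from -1.32 to 0.81, IL1A in invasive cells from -0.17 to 0.30 and CXCL2 with the MEK inhibitor from -0.82 to 0.026. In Kyse30 invasive cells CXCL8 ran from -0.088 to 0.58 and CXCL3 from -0.16 to 0.38, both at -0.10 with limma-voom, and PTGS2 with the MEK inhibitor ran from -0.18 to 0.60. Where a fit holds fewer genes or libraries that is by construction, and otherwise the cause was not tested. With the replicate number as a block the counts of called genes were those without it, 1 for the MEK inhibitor against cetuximab in Kyse30, except 5 in place of 4 for invasive cells against serum-free spheroids in Kyse30, where PTGS2 at 1.19 was called (adjusted p = 0.0478). In every comparison but the first of these, at least 1 same-numbered pair correlated below 0.1, and whether those libraries are paired cannot be told. Some pairs there did pass 0.1, such as replicates 3 and 4 of FaDu between the MEK inhibitor and cetuximab (0.1952 and 0.3283). In Kyse30 the depth limits CXCL1, CXCL2, IL1B and IL24, with at most 38 counts in any group.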
